A study of Homo sapiens with 2 samples.

Results

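The genes described here encode proteins of PML nuclear bodies and a nuclear DNA sensor that acts beside them: PML, SP100, SP110, DAXX, ATRX and IFI16. Their probe sets were taken as every probe set of the array table whose only gene symbol in the platform annotation was 1 of these 6 genes, which gave 30 of 54613 probe sets, 10 for PML, 6 for SP100, 5 for SP110, 4 for ATRX, 3 for IFI16 and 2 for DAXX. No probe set named a member together with another gene. The cells were hTERT-RPE1, a telomerase-immortalised line of human retinal pigment epithelium, grown with 10% fetal bovine serum and hygromycin B. One culture was transfected with a control oligo and the other with a miR-129-3p oligo, both with the lipid reagent RNAiMAX, and total RNA was taken after 72 h for 1 Affymetrix array each (n = 1 per group). The series was made to follow the effect of miR-129-3p on cilium assembly, CP110 and actin.

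PML nuclear bodies are spherical structures of the nucleus. The PML protein, a RING finger protein of the TRIM family, forms their shell once it is modified with SUMO, and SP100 is the other lasting constituent. SP110 belongs to the same speckled protein family as SP100. DAXX is a histone chaperone that sits in the bodies and works with ATRX, a chromatin remodeller, to place the histone variant H3.3 at repetitive DNA such as telomeres. IFI16, a PYHIN family protein, binds double-stranded DNA in the nucleus and can signal through STING. PML, SP100, SP110 and IFI16 are known interferon-stimulated genes, and the bodies are known to restrict DNA viruses.

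The oligo carried the name of a mature microRNA that 2 human loci make in forms with a single base between them, and the sources used here do not say which form was transfected. Both forms are shown from RefSeq (GRCh38.p14), 5′ to 3′, with the seed, bases 2 to 8, in capitals, because the seed is the part that pairs with target transcripts. They differ at position 20, outside the seed.
hsa-miR-129-1-3p: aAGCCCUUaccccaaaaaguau
hsa-miR-129-2-3p: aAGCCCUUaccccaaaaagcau

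With a single array per group no value has a replicate error, no p-value is given, and each difference compares these 2 arrays and not the conditions. Signals are the deposited probe set intensities on a linear scale. A difference is log2(signal + 16) on the miR-129-3p array minus the same on the control array, a scale that understates differences of dim probe sets. "Higher" and "lower" as calls mean at least 2-fold on this scale. The 2 arrays had median signals of 96.5 (control) and 98.0 (miR-129-3p), and a signal of 100 is used below to mark probe sets as dim, since no detection calls were used here. As a yardstick, the pooled SD of the differences among probe sets of one gene was 0.37 (6179 genes). It was taken over genes with 2 or more probe sets at 100 or more on the brighter array. It therefore leaves out dim probe sets, and also any spread between cultures. The probe sets of a gene share the same 2 RNA samples, so they are not replicates. In a bulk sample, more cells with a transcript and more transcript per cell cannot be told apart.

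Over the whole set, 20 of the 30 probe sets passed 2-fold in the higher direction after miR-129-3p and 0 in the lower. Among all 41091 probe sets with 1 gene symbol, 4.69% passed it in the higher and 2.84% in the lower direction. The median difference of the 30 was 1.65, beside -0.01 for all named probe sets. By gene, using the probe set with the highest mean level, 4 of the 6 genes were higher (PML, SP100, SP110 and IFI16). Of all 19775 genes, 5.27% were higher and 2.99% lower, and 0 of the 6 were lower. The mean level covers both arrays, so this choice can favour a probe set raised on the miR-129-3p array. The SP100 probe set brightest in control, 202863_at, differed by 0.84, under 2-fold, and that of PML, 211012_s_at, by 1.77. DAXX and ATRX passed the limit in neither direction. A signal of 100 was reached on the brighter array by 26 of the 30 probe sets, and 2 of those reached it only on the miR-129-3p array. The 4 dim ones all belonged to PML. Every probe set of SP110, IFI16, DAXX and ATRX had a name ending in _s_at or _x_at, Affymetrix suffixes for probe sets that may bind several transcripts; of the 7 without them, all of PML or SP100, 5 were higher.

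**Figure D1:**
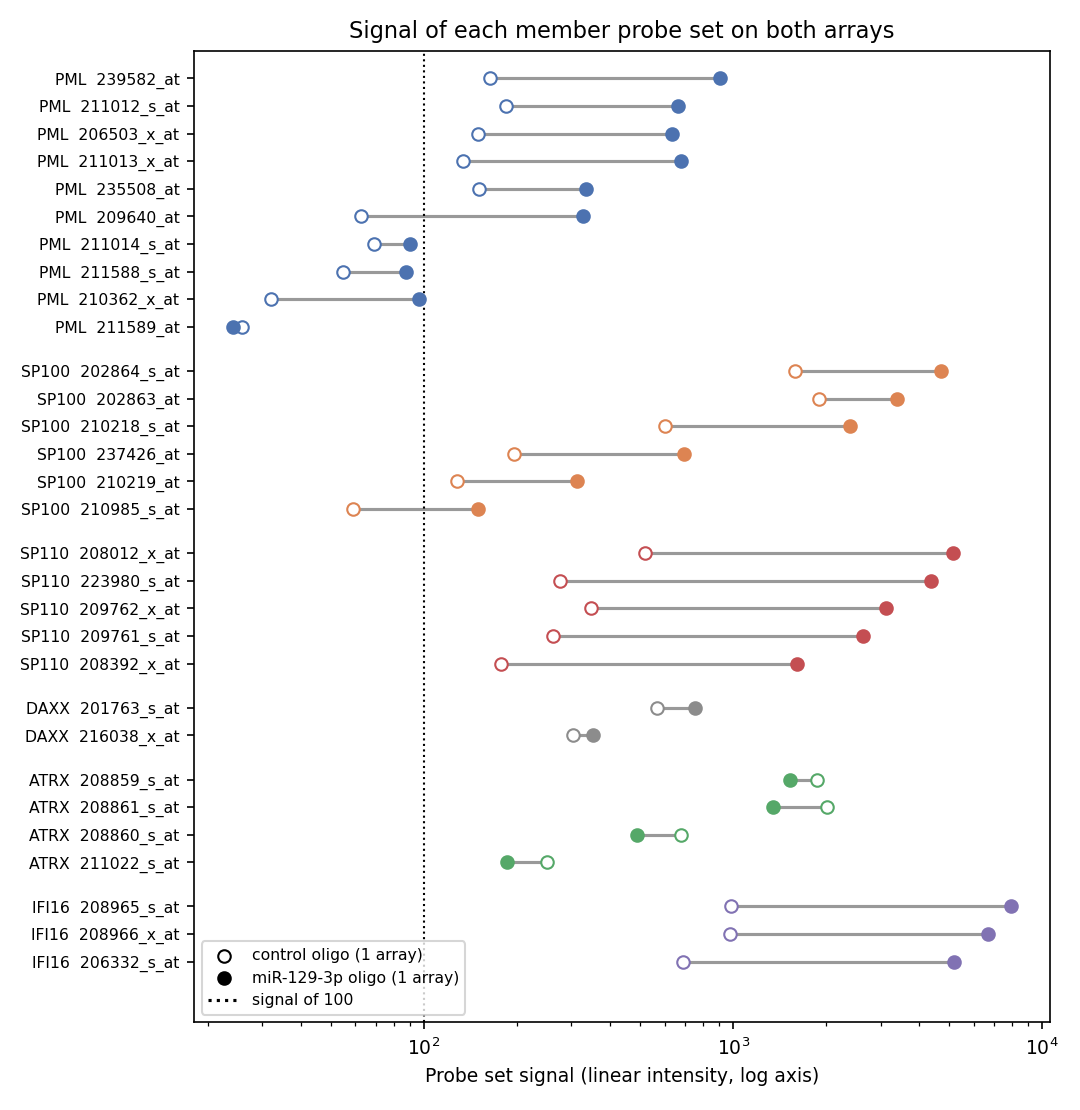
Signal of each of the 30 probe sets (rows, grouped by gene) on a log axis of linear intensity, with open circles for the control array and filled circles for the miR-129-3p array; the dotted line marks a signal of 100. The filled circle lies far to the right of the open one for every SP110 and IFI16 probe set, slightly to the right for DAXX, and to the left for all 4 ATRX probe sets.

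PML, the gene of the shell protein, had the most probe sets and the widest spread of differences. Its probe set with the highest mean level, 239582_at, read 164 in control and 907 after miR-129-3p, a difference of 2.36 (5.14-fold). Only 1.11% of all genes had a difference as large or larger on their own brightest probe set. Of the other 5 PML probe sets at 100 or more on the brighter array, 211012_s_at read 184 and 665 (1.77). 211013_x_at read 134 and 676 (2.20), and 206503_x_at read 149 and 634 (1.97). These 3 and 239582_at thus had differences within a band of 1.77 to 2.36.

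The remaining PML probe sets departed from that band or were dim in control or on both arrays. 235508_at read 151 and 334, a smaller difference of 1.07. 209640_at read 62.5 in control, under the mark of 100, and 326 with miR-129-3p, a difference of 2.12. On 4 probe sets both arrays were under 100, with signals of 25.7 to 69.1 in control and 24.1 to 96.7 with miR-129-3p. Their differences ran from -0.06 on 211589_at to 1.23 on 210362_x_at, the latter called higher only because the scale has no floor: with signals under 100 set to 100 it is 0.00. Across all 10 PML probe sets 7 were at least 2-fold higher, 9 were above 0, and the median corresponded to 2.83-fold. The mean over its probe sets gave PML a difference of 1.35 in place of 2.36. PML transcripts are spliced into many forms, and which form each probe set reads was not examined here.

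SP100, the other lasting constituent of the bodies, was higher on 5 of its 6 probe sets, and all 6 were above 0. On the probe set with the highest mean level, 202864_s_at, it read 1590 in control and 4700 after miR-129-3p, a difference of 1.55 (2.94-fold), and 2.52% of genes differed by as much or more. The probe set 202863_at read 1889 and 3400, a difference of 0.84 that missed the 2-fold limit but passed 1.5-fold, as 10.7% of all named probe sets did. 210218_s_at had the largest SP100 difference, 1.96, from 601 to 2387. The other probe sets read 196 and 694 (237426_at), 128 and 312 (210219_at), and 59.1 and 150 (210985_s_at), the last of them dim in control. The miR-129-3p array was thus the higher of the pair on every SP100 probe set, with a median difference of 1.37 and a span of 1.12 between the smallest and the largest.

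SP110, a speckled protein that carries a chromatin-reading bromodomain and is best known from macrophage resistance to intracellular bacteria, had the largest difference of the 6 genes. The brightest probe set, 208012_x_at, read 520 in control and 5144 after miR-129-3p, a difference of 3.27 (9.62-fold). 223980_s_at read 276 and 4362, the largest difference of any probe set in the group at 3.91 (15.0-fold). The remaining SP110 probe sets read 348 and 3129 (209762_x_at), 262 and 2622 (209761_s_at), and 178 and 1609 (208392_x_at). All 5 were well above 100 on both arrays, and all 5 lay between 3.06 and 3.91. Of 1335 genes with 5 or more named probe sets, 5 (0.375%) were at least 2-fold higher on every one. In SP110 and CASP1 alone among those 1335 every probe set was higher by 3 log2 units or more. With 3 or more probe sets this held for 6 of 5508 genes: CASP1, CCL5, RIGI, SAMD9L, SP110 and XAF1. Both limits lie at SP110's own values, 5 probe sets and a lowest difference of 3.06, so its place there is a description only. By its brightest probe set SP110 ranked 97 of 19775 genes in the higher direction.

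SP110 and SP100 lie in one gene cluster with their relatives SP140 and SP140L, in the order SP110, SP140, SP140L, SP100 on chromosome 2 of GRCh38.p14, with SP110 on the opposite strand to the others. The first SP110 window and the SP140 window overlap by 199 bases, because these genes start next to each other and point apart. RefSeq start windows (250 bases before to 50 after a start) are shown for SP110 and SP140L, because their windows share a run of letters. An SP100 window is shown because it holds only the letters that open this run. The sequences run 5′ to 3′ on the gene's strand, and capitals mark every match to AANNGAAA or its reverse complement TTTCNNTT, the letters of an interferon regulatory factor half-site.
SP110, chr2:230225587-230225886, minus strand: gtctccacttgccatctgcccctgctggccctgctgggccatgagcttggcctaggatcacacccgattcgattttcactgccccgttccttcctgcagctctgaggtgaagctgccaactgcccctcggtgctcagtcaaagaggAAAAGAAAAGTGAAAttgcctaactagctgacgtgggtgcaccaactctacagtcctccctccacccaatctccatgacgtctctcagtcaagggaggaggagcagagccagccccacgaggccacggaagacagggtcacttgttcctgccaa
SP110, chr2:230219935-230220234, minus strand: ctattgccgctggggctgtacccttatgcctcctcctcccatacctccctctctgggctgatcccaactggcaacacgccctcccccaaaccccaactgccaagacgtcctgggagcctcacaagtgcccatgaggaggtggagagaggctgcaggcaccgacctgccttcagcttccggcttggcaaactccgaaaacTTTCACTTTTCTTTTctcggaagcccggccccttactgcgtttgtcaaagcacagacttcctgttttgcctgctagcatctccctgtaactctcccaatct
SP140L, chr2:230326943-230327242, plus strand: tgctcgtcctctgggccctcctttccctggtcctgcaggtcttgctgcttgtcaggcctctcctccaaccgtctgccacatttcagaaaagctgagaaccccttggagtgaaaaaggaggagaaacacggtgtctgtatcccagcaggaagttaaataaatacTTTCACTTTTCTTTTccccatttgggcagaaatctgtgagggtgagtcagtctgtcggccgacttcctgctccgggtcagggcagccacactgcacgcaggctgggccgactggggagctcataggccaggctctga
SP100, chr2:230415951-230416250, plus strand: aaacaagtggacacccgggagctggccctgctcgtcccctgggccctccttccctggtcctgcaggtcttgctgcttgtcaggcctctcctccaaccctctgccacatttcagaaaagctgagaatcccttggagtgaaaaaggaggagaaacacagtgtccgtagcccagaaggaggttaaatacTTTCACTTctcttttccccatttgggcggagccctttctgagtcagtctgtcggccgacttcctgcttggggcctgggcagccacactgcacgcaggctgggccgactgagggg

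Each SP110 window held a pair of matches within the run TTTCACTTTTCTTTTC, read on one strand or the other, and the SP140L window held the same 16 letters, the longest run common to these 3 windows. In the whole RefSeq table this run occurred, on either strand, in 4 of 35097 windows (0.0114%). All 4 belonged to SP110, SP140 or SP140L, and they mark 3 places in the genome since the SP110 and SP140 windows overlap. The SP100 window shown held a single half-site match, TTTCACTT, the letters that open the run, and the second SP100 window, at the start chr2:230416506-230416805, held none. Over an end-to-end alignment the first shared 76.8% of 328 columns with the SP140L window and the second 45.1% of 319. The half-site is common: AANNGAAA occurred in 22.8% of all windows and at least 2 times in 5.66%. The longer interferon-stimulated response element core, GAAA repeated after a gap of 2 bases, was found in 3.58% of windows and in none of the 6 windows of SP100, SP110 and IFI16 (both strands). The gamma-activated site TTCNNNGAA was found in 7.66% of windows and, among those 6, in 1 SP110 window, chr2:230219935-230220234. The half-site letters lie inside that core wherever the core occurs. No window was available for PML, DAXX or ATRX, so the matches cannot be set beside those genes. The half-site and the run of 16 letters were chosen after these windows were seen, and a match is a description of letters, not of bound protein. The run was taken from the SP110 and SP140L windows, so its presence there was fixed by that choice. Its small share of all windows is therefore no evidence about these genes.

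IFI16, the DNA sensor, had close values on its 3 probe sets. On 208965_s_at, the brightest, it read 985 in control and 7909 after miR-129-3p, a difference of 2.98 (7.92-fold). 208966_x_at read 976 and 6691 (2.76), and 206332_s_at read 687 and 5164 (2.88). All 3 stood well above 100 on the control array already, and they differed from each other by at most 0.23. Of 5508 genes with 3 or more named probe sets, 81 (1.47%) were at least 2-fold higher on every one, IFI16 among them. By its brightest probe set, 0.652% of genes had a difference as large as IFI16 or larger. The window of its second RefSeq start is shown because it held 2 overlapping half-site matches, in capitals as before.
IFI16, chr1:159009657-159009956, plus strand: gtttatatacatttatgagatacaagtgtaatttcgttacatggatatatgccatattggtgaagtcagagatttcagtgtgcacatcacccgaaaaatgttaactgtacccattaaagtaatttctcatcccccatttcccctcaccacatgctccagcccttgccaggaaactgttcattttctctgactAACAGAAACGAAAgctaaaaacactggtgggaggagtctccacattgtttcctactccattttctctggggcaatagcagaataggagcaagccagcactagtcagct

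DAXX, the H3.3 chaperone, differed little. Its brighter probe set, 201763_s_at, read 566 in control and 750 after miR-129-3p, a difference of 0.40 (1.32-fold). 216038_x_at read 303 and 352, a difference of 0.21 (1.15-fold). The 2 values are both above 0, the second is smaller than the pooled SD of 0.37 among probe sets and the first slightly larger, and 17.5% of genes had a difference as large as DAXX or larger.

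ATRX, the remodeller that works with DAXX, was the only member below 0 on all its probe sets. It read 1862 in control and 1522 after miR-129-3p on 208859_s_at (-0.29), and 2013 and 1350 on 208861_s_at (-0.57). The other pair read 677 and 488 on 208860_s_at (-0.46), and 250 and 186 on 211022_s_at (-0.40). The miR-129-3p array was the lower one each time, by 1.22- to 1.48-fold, so 0 of 4 probe sets passed even the 1.5-fold limit, which 6.98% of all named probe sets passed in the lower direction. One-way agreement of this kind is frequent: of 2728 genes with 4 or more named probe sets, 482 (17.7%) were below 0 on all of them. By its brightest probe set, 18.7% of genes had a difference as low as ATRX or lower.

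**Figure D2:**
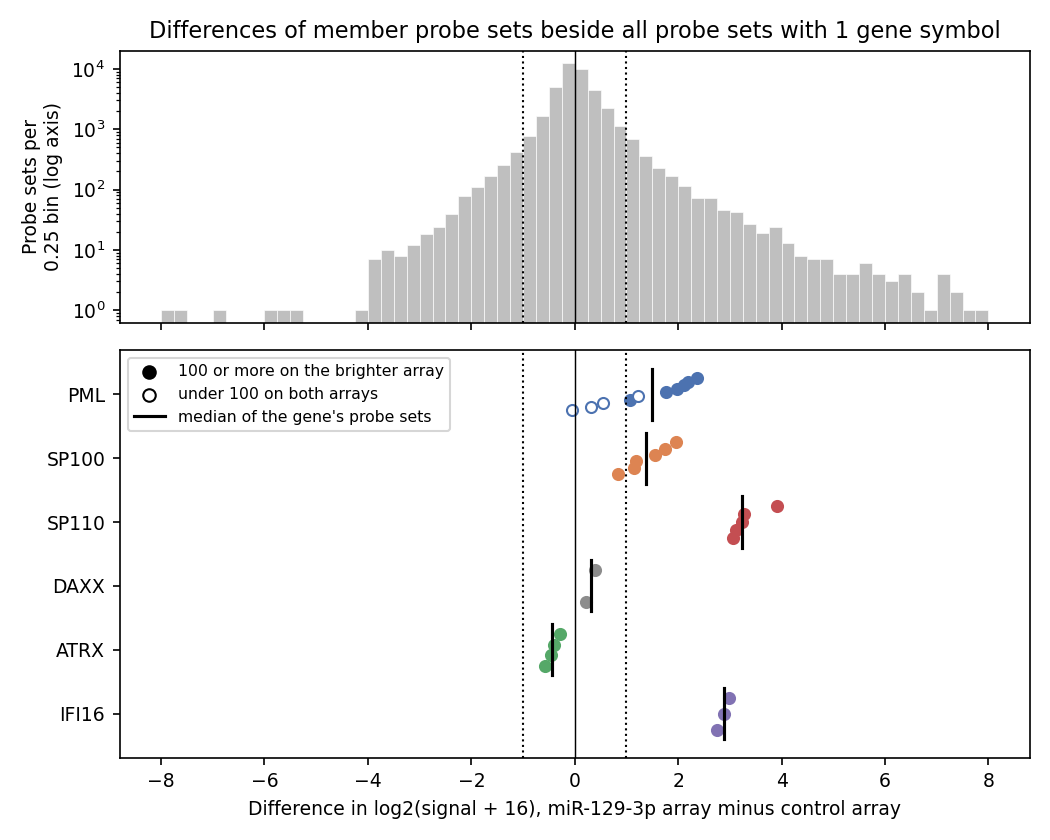
Upper panel, number of probe sets with 1 gene symbol (log axis) by their difference in log2(signal + 16), miR-129-3p minus control; lower panel, the same difference for each member probe set, filled where the brighter array reached 100 and open where neither did, with a black bar at each gene's median and dotted lines at the 2-fold limits. SP110 (3.06 to 3.91) and IFI16 (2.76 to 2.98) form the highest groups, PML and SP100 overlap, and DAXX and ATRX sit inside the limits on either side of 0.

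Ordered by the median difference of their probe sets, the genes ran SP110 (9.48-fold higher), IFI16 (7.37-fold), PML (2.83-fold), SP100 (2.59-fold), DAXX (1.23-fold) and ATRX (1.35-fold lower). The lowest SP110 value, 3.06, was above the highest IFI16 value, 2.98, by less than the pooled SD of 0.37. Their order is therefore not settled by these values. All SP100 values (0.84 to 1.96) fell inside the wider PML range (-0.06 to 2.36), and the lowest PML values, from dim probe sets, reached into and below the DAXX values. The lowest IFI16 value, 2.76, was above the highest PML value, 2.36, and the lowest SP100 value, 0.84, above the highest DAXX value, 0.40. DAXX and ATRX did not overlap each other. These ranges describe probe sets that share the same 2 RNA samples, not replicates of a gene. How often the ranges of other gene pairs stay apart was not counted. No test of these differences between genes was possible with 1 array per group.

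For each member the 2 genes with the most similar pair of levels on the 2 arrays were found, as the straight-line distance in log2(signal + 16) over these 2 arrays between brightest probe sets. SP110 was nearest to RIGI, which encodes a sensor of viral RNA (533 in control and 5127 after miR-129-3p, distance 0.035), and to PSMB9, an immunoproteasome subunit (distance 0.081). IFI16 was nearest to PTX3, a secreted pattern recognition protein (905 and 7734, distance 0.12), and to TAP1, the peptide transporter of antigen presentation (distance 0.17). PML was nearest to TMCC3 and SRPX2 (distances 0.046 and 0.091), and SP100 to PFKFB4, an enzyme that controls glycolysis, and SHISA2 (0.084 and 0.088). The nearest genes to DAXX were NSUN5P1 and PTCD2, both at 0.018, and those to ATRX were USP48 (0.024) and LSS (0.026). This likeness rests on 2 numbers per gene, and signal levels of different probe sets also depend on how well each probe binds: the SP110 probe sets alone ran from 1609 to 5144 after miR-129-3p, so the names are a description only.

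The close relatives of the members gave mixed values. SP140, a speckled protein of leukocytes, read 52.3 in control and 193 after miR-129-3p on its single probe set (1.61). SP140L read 381 and 753 on its brightest probe set, a difference of 0.95 that missed 2-fold. Its 3 probe sets ran from -0.06 to 0.95, and the lowest was dim on both arrays (45.7 and 43.4). AIM2, the cytoplasmic DNA sensor of the PYHIN family, read 41.0 and 255 (2.25). SP140 and AIM2 were therefore higher but dim in control. MNDA (29.9 and 28.6) and PYHIN1 (35.0 and 46.8) were under 100 on both arrays. Of the 5 relatives 2 were at least 2-fold higher and 0 lower, where 5.27% and 2.99% of all genes were, with a median of 0.95.

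The SUMO machinery makes the modification that holds the bodies together. A singly named probe set existed for 14 of 19 listed genes, of which 0 were at least 2-fold higher and 0 lower, where 5.27% and 2.99% of all genes were, with a median of 0.05 beside -0.01 for all genes. The extremes were PIAS1, a SUMO ligase (0.78, from 795 to 1374), and SENP7, a SUMO protease (-0.43). RNF4, the ubiquitin ligase that removes SUMO-modified PML, read 1669 and 1653. SUMO3 read 3054 and 2605.

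Of 18 genes of proteins that visit the bodies, 2 were at least 2-fold higher and 0 lower, where 5.27% and 2.99% of all genes were, with a median of 0.11. ISG20, an exonuclease that degrades viral RNA and is found in the bodies, read 40.2 in control and 3342 after miR-129-3p (5.90), and its other probe set differed by 5.95. NBN, of the MRE11 complex for DNA breaks, read 1005 and 2078 (1.04), but its 5 probe sets ran from -0.21 to 1.31. MORC3, an ATPase recruited to the bodies, read 1167 and 1571 (0.42), and BLM, a DNA helicase, 189 and 107 (-0.73).

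The list for H3.3 deposition and heterochromatin, the work of DAXX and ATRX, had 0 of 15 genes at least 2-fold higher and 1 lower (5.27% and 2.99% of all genes), with a median of -0.04. The lower one was CBX5, which encodes the heterochromatin protein HP1 alpha, at 2397 and 708 on its brightest probe set (-1.74), though its 6 probe sets ran from -1.74 to -0.08. HIRA, the core of the other H3.3 chaperone complex, read 535 and 1071 (0.98) on one probe set. Its other probe set was dim on both arrays, at 18.0 and 17.6 (-0.01). Its partners UBN1 (0.64), CABIN1 (0.70) and ASF1A (0.67) were at least 1.5-fold higher but did not reach 2-fold, and the other probe sets of UBN1 (0.45) and ASF1A (0.33) missed 1.5-fold. Of the 15 genes 5 were at least 1.5-fold higher, where 11.9% of all genes were, and 3 at least 1.5-fold lower, where 7.33% were. SETDB1 was among the 5, at 0.65 on its brightest probe set, but its other probe set read 269 and 185 (-0.50). ASF1B, the replication-linked histone chaperone, read 163 and 74.0 (-0.99). H3-3A, an H3.3 gene, read 323 and 222 (-0.51), and H3-3B was not analysed here.

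Among 23 genes of DNA sensing other than IFI16, 3 were at least 2-fold higher and 1 lower, with a median of 0.17, beside 5.27% and 2.99% of all genes. IRF7, the interferon regulatory factor that amplifies the response, read 201 and 3634 (4.07). STING1, the adaptor through which IFI16 and CGAS signal, read 355 and 760 (1.06, with 0.91 on its other probe set). TBK1, the kinase bound by STING1, read 753 and 1747 (1.20). CGAS, the main cytoplasmic DNA sensor, had no clear reading: an _x_at probe set, of the kind that may bind several transcripts, read 4198 and 4014 (-0.06), while its other probe sets were dim, at 30.5 and 22.6 and at 14.4 and 13.1. IRF3, the factor that TBK1 phosphorylates, read 154 and 224 (0.50). PRKDC, the DNA-dependent protein kinase, was the lower one at 2304 and 903 (-1.34). Of its 3 probe sets another read 620 and 232 (-1.36), and the last was dim on both arrays, at 57.0 and 59.4 (0.05).

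For nucleases and other brakes on nucleic acid sensing, 2 of 11 genes were at least 2-fold higher and 1 lower. Of all genes, 5.27% and 2.99% were. The median of the 11 was -0.09. SAMHD1, a dNTP hydrolase that also limits nucleic acid sensing, read 436 and 6815 (3.92), and all 6 of its probe sets lay between 2.79 and 3.92. ADAR, the RNA editing enzyme, read 3316 and 8160 (1.29). RNASEH2A, the catalytic subunit of RNase H2, read 379 and 166 (-1.12). BANF1, which competes with CGAS for nuclear DNA, read 2671 and 1994 (-0.42). TREX1 was not analysed here.

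**Figure D3:**
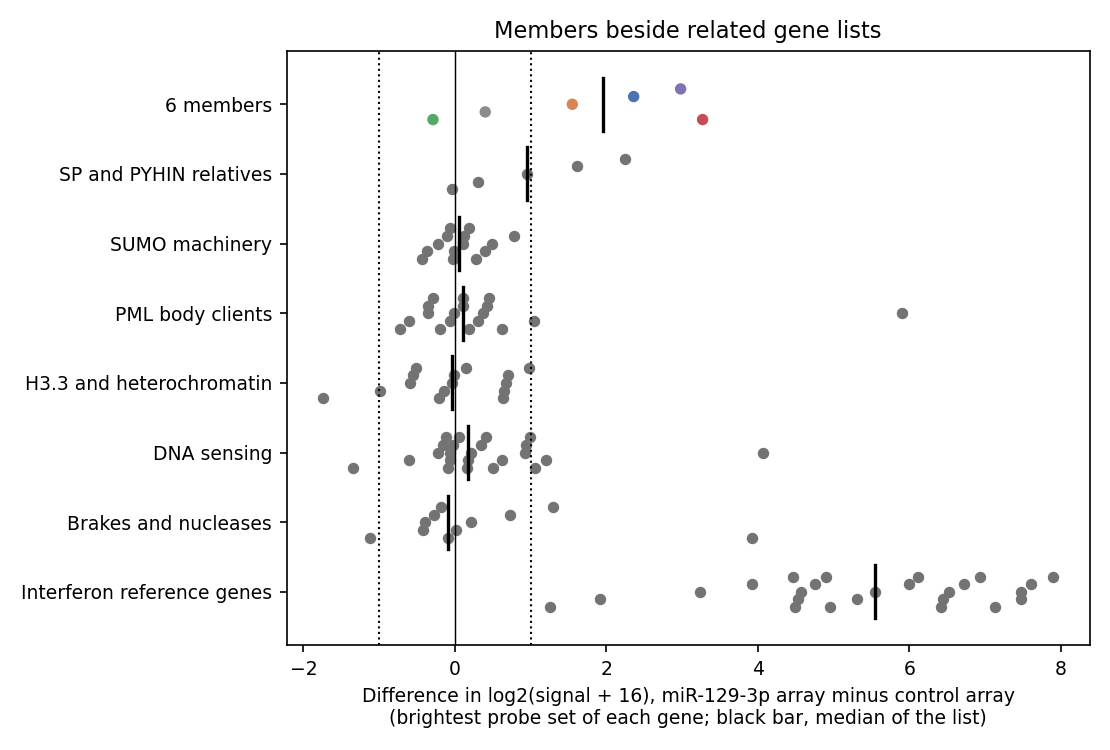
Difference in log2(signal + 16), miR-129-3p minus control, of the brightest probe set of each gene for the 6 members and 7 lists; each point is a gene, the black bar is the list's median and dotted lines mark the 2-fold limits. The interferon reference genes lie to the right (median 5.55), and the medians of the SUMO, client, H3.3 and DNA sensing lists lie between -0.04 and 0.17.

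Values of interferon-stimulated reference genes are given beside the members. All 25 reference genes with a probe set were at least 2-fold higher, from 1.26 for OAS2 to 7.90 for XAF1, with a median of 5.55. The OAS2 value came from 1 of 3 probe sets, which ran up to 6.19. SP110 had a smaller difference than 22 of the 25, IFI16 and PML than 23, and SP100 than 24. This list was chosen with its response on these arrays known, so neither its direction nor the place of the members within it is independent evidence. In control 13 of the 25 reached a signal of 100; the others were dim there, where the added constant limits the difference.

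Blood cells carry much SP110, SP140 and IFI16, so their markers are given beside these genes. Of 8 blood cell markers with a probe set, 1 reached 100 on either array, HBB, a globin, with 162 in control and 149 after miR-129-3p. PTPRC, the pan-leukocyte antigen CD45, read 36.9 and 41.0, and the summed marker signal was 476 in control and 472 after miR-129-3p. Of 11 markers of retinal pigment epithelium, 4 reached 100: MITF (2470 and 1020), OTX2 (1452 and 1625), PMEL (114 and 229) and TTR (91.0 and 110). RPE65, BEST1, RLBP1, TYR, TYRP1, SERPINF1 and LRAT were under 100 on both arrays, with BEST1 close to that mark at 82.3 and 93.6; RPE65, the isomerase of the visual cycle, read 6.44 and 6.66. The 11 had a median difference of 0.00, with MITF lower (-1.26). Of 10 epithelial and mesenchymal markers all 10 were below 0, with a median of -0.41 beside -0.01 for all genes. EPCAM among them was dim on both arrays (19.6 and 9.86). FN1 (-0.09), CDH1 (-0.17), VIM (-0.19), KRT8 (-0.32) and CDH2 (-0.35) differed by less than the pooled SD of 0.37. At least 2-fold lower were 3, where 2.99% of all genes were: ACTA2 (-2.33), KRT7 (-1.93) and COL1A1 (-1.23). Their probe sets ran from -2.33 to -0.07 for ACTA2, -1.93 to 0.10 for KRT7 and -3.34 to -0.27 for COL1A1. VIM (18474 and 16201) and KRT8 (6138 and 4918) had high signals on both arrays. The part of these marker differences in the values of the members was not tested.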

How the data were processed

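The authors deposited 1 probe set intensity per array on a linear scale, for 54613 probe sets. MAS5 and RMA are both named in the submitters' processing notes, with no word on which one gave these values. Genome build, background correction and scaling between arrays are not given in the sources used here. A floor or compression applied to low intensities at that stage would change the differences of dim probe sets. Of the probe sets, 41091 carried 1 gene symbol in the platform annotation, 1801 several, and 11721 had no entry. Gene IDs of 41037 named probe sets matched the GRCh38.p14 gene table, which updated the symbols.

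Values were analysed as log2(value + 16), with no filter except in the pooled SD, and calls were set at 2-fold. The members and lists were chosen with earlier results of these data known. All 6 members and all their probe sets are described. In each list, up to 3 genes at each end past 2-fold at 100 or more were named, with relatives and main pathway genes whatever their values. For the retinal pigment epithelium and other cell markers, those at 100 or more could be named. Of 153 list entries 140 had a probe set. No test was made with n = 1 per group, and the number of arrays limits the precision.

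Alternatives were constants of 1 and 64, median centring, a loess trend, quantile normalization, filters at 100 and at a mean of 200, a floor of 100, dropping the _x_at and _s_at probe sets, fold limits of 1.5 and 3, and gene means. Leaving out _x_at probe sets alone and a filter at 100 on the control array were added after the data were seen. Code was tested on simulated data. Python 3.11.15 was used with pandas 2.3.3, numpy 2.4.6, matplotlib 3.10.9 and, for loess, statsmodels 0.14.6.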

Additional observations from a re-analysis of the deposited data

How the results depend on the processing

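By gene, 4 of the 6 members stayed at least 2-fold higher under every scaling, constant, filter and fold limit except 2. At a fold limit of 3 the count was 3, without SP100. When the _x_at and _s_at probe sets were dropped, 7 probe sets of PML and SP100 remained, and the other 4 genes had none. There 5 of 7 probe sets and 1 of 2 genes were higher, with a median difference of 1.19. Such suffixes mark probe sets that may bind more than 1 transcript. Without _x_at probe sets alone, 13 of 22 were higher with a median of 1.17. No member probe set was at least 2-fold lower under any setting. At a fold limit of 1.5, 21 of 30 probe sets were higher, and at 3, 15. The weakest calls were lost in places. With a constant of 64, 16 of 30 were higher, without 235508_at (0.89) and 210362_x_at (0.74) of PML and 210219_at (0.97) and 210985_s_at (0.80) of SP100. With quantile normalization 235508_at stood at 0.98, leaving 19. With a floor of 100, 18 were higher, without 210362_x_at (0.00) and 210985_s_at (0.52). By gene, PML differed by 1.35 with the mean of its probe sets in place of 2.36, and SP100 by 0.84, under 2-fold, without _x_at and _s_at probe sets. In all, 9 values of single members moved by more than the pooled SD, none to the other side of 0. Scaling left the median of all named probe sets between -0.04 and 0.00. The lists moved as follows. The interferon reference median was 5.02 with a constant of 64, 4.92 with a floor of 100 and 4.53 among genes at 100 or more in control. The median of the relatives was 1.61 among those at 100 or more on the brighter array and 0.54 with gene means. Retinal pigment epithelium markers stood at -0.55 with a mean of 200 or more, and epithelial and mesenchymal markers at -0.92 without _x_at and _s_at probe sets. Apart from these, 158 of the recomputed counts and medians stayed within the limits set. No paired analysis was possible because each group has 1 array. Signals under 100 limit the 4 dim PML probe sets most.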
